A study of Homo sapiens with 12 samples.

Results

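The genes described here drive cells through G2 and mitosis. A list of 51 genes was set by name, and for each gene the probe set naming that gene alone with the highest mean over all 12 arrays was used. All 51 were measured, of 11963 genes in all, and their mean levels over the arrays lay between 8.75 and 12.75 log2 units. The members and their grouping were chosen with earlier results of these data known.

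In G2 the kinase Cdk1 with its B-type cyclins starts mitosis, Aurora and Polo kinases build the spindle, kinetochores tie chromosomes to it, and the spindle checkpoint delays anaphase until all are attached. The anaphase-promoting complex with its activator Cdc20 then destroys securin and cyclin B, and the cell divides by cytokinesis. Most of these genes are transcribed late in the cycle through a shared promoter arrangement, in which the MuvB core with B-Myb or FoxM1 acts at a CHR element and the factor NF-Y acts at CCAAT boxes, and their summed mRNA is widely used as a proliferation measure in breast cancer.

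The cells were labelled MDA-MB-231, a human triple-negative breast cancer cell line, and were measured on 3′ expression arrays. They carried, by stable transfection, LSD2 shRNA or scramble shRNA in a first pair of groups and LSD2/eGFP/Flag vector or eGFP/Flag vector in another, and each of these 4 groups had 3 arrays from biological replicates. The KDM1B gene encodes LSD2, a demethylase of histone H3, and the comparisons ask what changes when it is lowered or raised. All cells had been under G418 to kill untransfected ones. The labels do not say whether a stable line is a clone or a pool, which promoter drives the vectors, or how the replicates were separated, so p-values measure the spread between arrays of what may be 1 line per group. No probe set used here named KDM1B (0 probe sets), and neither the knockdown nor the overexpression was checked on the targeted gene.

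Arrays of a group correlated at r = 0.996 to 0.998 over genes. The LSD2 shRNA and scramble arrays correlated at 0.991 to 0.994, whereas the LSD2/eGFP/Flag arrays correlated with the eGFP/Flag arrays at only 0.904 to 0.908. Of 12 markers of mesenchymal basal breast lines, all 12 were lower in the LSD2/eGFP/Flag arrays, where their mean level was 7.03 to 7.22 log2 units, against 12.16 to 12.17 in the eGFP/Flag arrays; CD44 was at 4.0 and ANXA1 at 4.7 there, against 12.4 and 13.3. The same markers averaged 11.40 to 11.48 in the LSD2 shRNA arrays and 11.50 to 11.63 in the scramble arrays. The arrays labelled LSD2/eGFP/Flag vector were thus low in defining markers of the labelled line, and VIM, the brightest of those left there, was at 12.7, against 14.2. The part of this in the results on those arrays was not tested. The 6 shRNA arrays and the 6 vector arrays differ in median level (6.65 to 6.71 against 7.03 to 7.18) and appear to have been normalized separately, so no level was tested across them.

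The promoters of these genes show what the members share beyond their names. Windows from 250 bases before to 50 bases after the start were found for 43 of the 51 members in RefSeq (GRCh38.p14) and searched on both strands for the CHR letters TTTGAA or TTCGAA and for CCAAT; a CHR match and a CCAAT match may share a base. CHR letters stood in 32 of the 43 member windows (74.4%), against 12.4% of the 9563 first windows of genes tested and 16.4% of all 35116 windows. CCAAT stood in 74.4% of the member windows and 37.3% of those of genes tested, and both stood in 58.1% and 5.25%. The 250 bases before the start are shown for the members with both elements there that differed most in the vector comparison, 4 that fell and 1 that rose (CENPF, whose only CHR match lies after the start, is not shown); capitals mark every CHR and CCAAT match, CCAAT reading ATTGG and TTTGAA reading TTCAAA on the other strand.
MKI67, chr10:128126424-128126673, minus strand: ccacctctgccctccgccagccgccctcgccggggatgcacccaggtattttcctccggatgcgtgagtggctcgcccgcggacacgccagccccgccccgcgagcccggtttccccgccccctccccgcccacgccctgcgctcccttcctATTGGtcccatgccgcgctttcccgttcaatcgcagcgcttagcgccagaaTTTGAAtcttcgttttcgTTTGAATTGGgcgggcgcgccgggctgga
CDC20, chr1:43358731-43358980, plus strand: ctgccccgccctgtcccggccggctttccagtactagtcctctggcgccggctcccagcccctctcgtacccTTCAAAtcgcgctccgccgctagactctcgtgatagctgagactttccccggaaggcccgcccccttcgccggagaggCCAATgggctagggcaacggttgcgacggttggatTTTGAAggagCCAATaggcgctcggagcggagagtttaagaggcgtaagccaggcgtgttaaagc
KIF23, chr15:69414099-69414348, plus strand: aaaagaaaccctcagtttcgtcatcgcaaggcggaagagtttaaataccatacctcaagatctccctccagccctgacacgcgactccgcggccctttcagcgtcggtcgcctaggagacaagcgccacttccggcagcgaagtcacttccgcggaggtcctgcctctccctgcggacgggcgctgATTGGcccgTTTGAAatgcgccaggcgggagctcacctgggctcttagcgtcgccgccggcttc
HMMR, chr5:163460382-163460631, plus strand: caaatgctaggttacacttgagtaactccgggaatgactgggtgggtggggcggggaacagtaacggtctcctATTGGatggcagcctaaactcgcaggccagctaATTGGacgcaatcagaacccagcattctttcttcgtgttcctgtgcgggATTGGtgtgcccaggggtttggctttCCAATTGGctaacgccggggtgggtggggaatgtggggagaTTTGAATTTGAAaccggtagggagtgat
CCNB2, chr15:59104896-59105145, plus strand: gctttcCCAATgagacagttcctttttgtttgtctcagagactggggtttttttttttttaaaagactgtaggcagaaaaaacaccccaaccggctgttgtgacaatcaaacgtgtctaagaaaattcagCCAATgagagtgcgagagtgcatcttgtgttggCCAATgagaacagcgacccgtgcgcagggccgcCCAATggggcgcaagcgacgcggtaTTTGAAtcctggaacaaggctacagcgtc

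Counted from the start, CHR letters begin at -47 and -29 in MKI67, at -178 and -65 in CDC20, at -55 in KIF23, at -28 and -22 in HMMR and at -29 in CCNB2. CCNB2 has 4 CCAAT matches, the nearest beginning at -54. HMMR, which rose in the vector comparison, carries both elements as the 4 that fell do. Among members with a window, CHR letters stood in 25 of the 32 that fell with the LSD2/eGFP/Flag vector (78.1%), in 3 of the 5 that rose and in 4 of the 6 not called. A match is a description of letters and not a measured binding site.

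With the LSD2 shRNA few members moved, by at most 0.63 log2 units, and in both directions. ECT2, MAD2L1, NDC80, KIF11, CDK1, BUB3 and KIF15 rose, and AURKB, CDC25C, BUB1B and AURKA fell (limma, Benjamini-Hochberg adjusted p under 0.05 over all genes). That is 7 rises of 51 (13.7%, against 5.0% of all genes) and 4 falls (7.84%, against 5.53%), 11 calls in all (21.6%, against 10.5%). Among the 2991 brightest genes, which hold 42 of the members, 9.39% of genes rose and 7.26% fell, and 5 and 3 of those 42 members did. The median difference of the members was -0.0027, against -0.0052 for all genes tested, and 40 members, with differences from -0.26 to 0.28, were not called. In microarray data from whole cultures, fewer cells in G2 or mitosis and less mRNA per cell cannot be told apart.

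**Figure D1:**
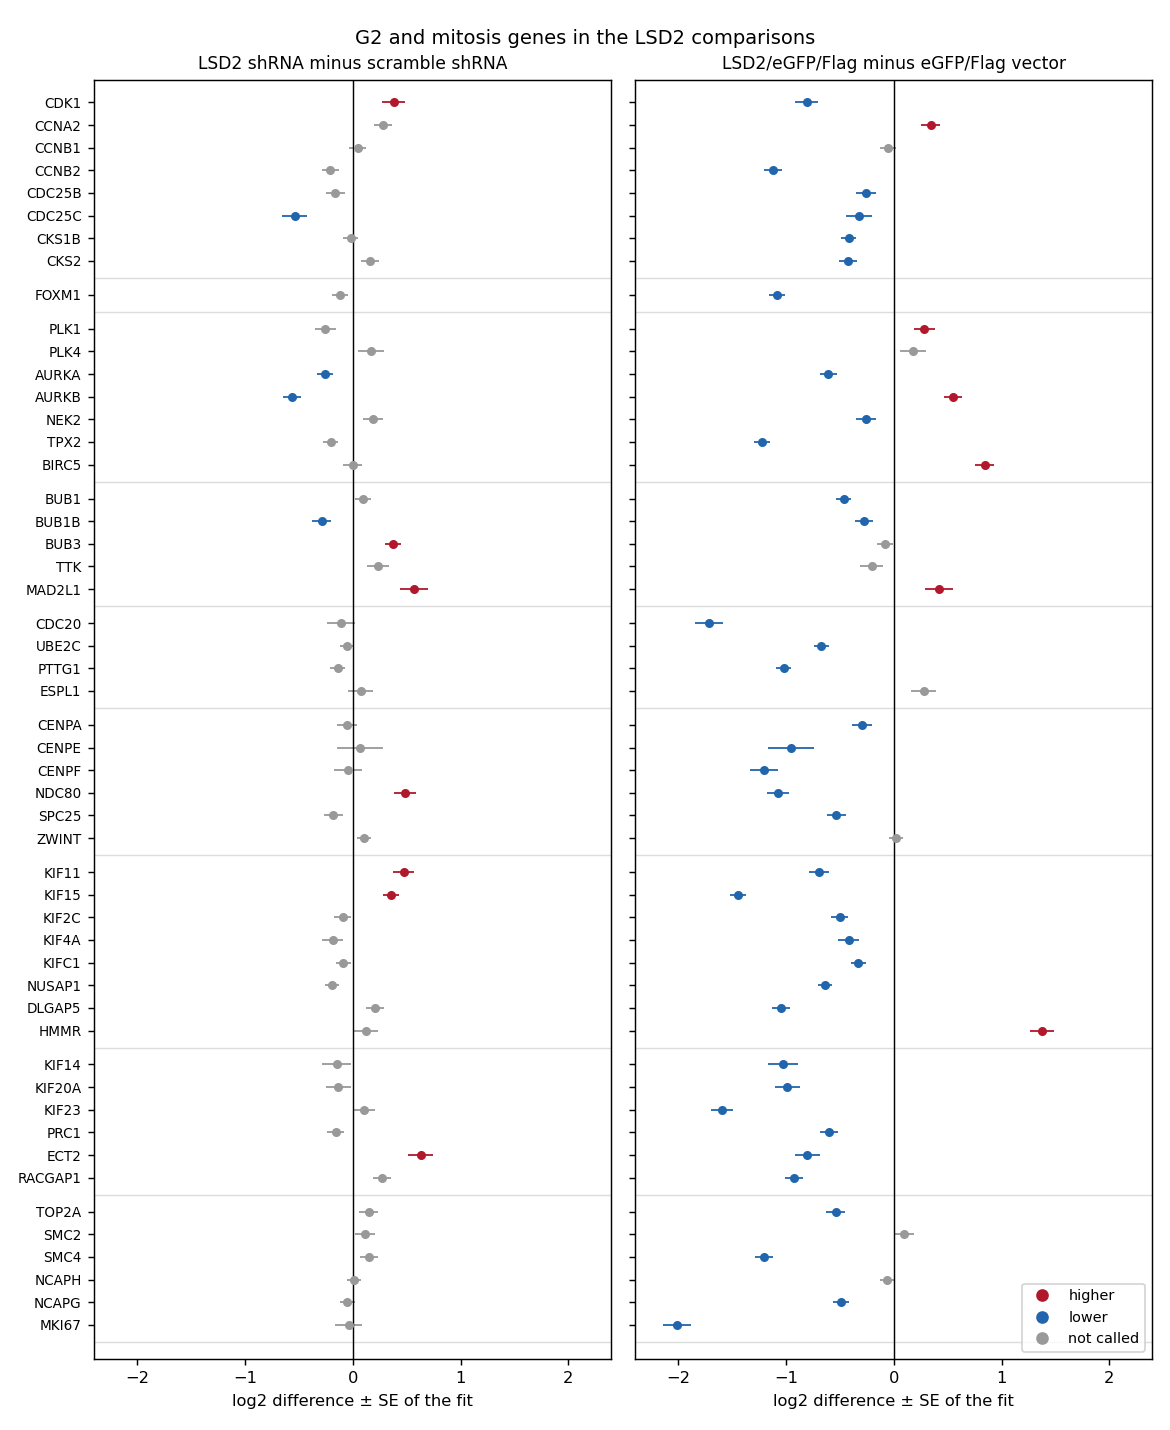
Log2 difference ± SE of the fit for each of the 51 members (rows, grouped by role between grey lines), LSD2 shRNA minus scramble shRNA in the left panel and LSD2/eGFP/Flag minus eGFP/Flag vector in the right (red higher, blue lower, grey not called; limma, adjusted p under 0.05). The left panel stays between -0.56 and 0.63, and the right panel spreads from -2.01 for MKI67 to 1.37 for HMMR, with 37 members lower and 6 higher.

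In the Cdk1 engine, CDK1, the kinase itself, had 11.96, 11.45 and 11.72 log2 units on the LSD2 shRNA arrays, against 11.44, 11.23 and 11.33 on the scramble arrays (0.38 ± 0.11 SE, adjusted p = 0.0406). The groups are barely apart, and the call was lost without any of 5 arrays, all but LSD2 shRNA replicate 2, the adjusted p then reaching 0.168. Its other probe sets gave 0.14 and 0.08, and the call was also lost with the mean of its probe sets (0.216) and with only the groups compared (0.107). CDC25C, a phosphatase that activates Cdk1, had 8.71, 8.83 and 8.37 on the LSD2 shRNA arrays, against 9.20, 9.28 and 9.06 on the scramble arrays. It fell by 0.54 (adjusted p = 0.0111), its groups did not overlap, and the call held without each array in turn, the adjusted p reaching 0.0489. CCNA2, the cyclin of S phase and early mitosis, was at 0.28 ± 0.09 and just missed the threshold (adjusted p = 0.0597). The other CCNA2 probe set gave 0.04. CCNB1, the main mitotic cyclin, was at 0.04 ± 0.08, CCNB2 at -0.21 ± 0.08 and the factor FOXM1 at -0.12 ± 0.07, none called.

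Among mitotic kinases and their partners, AURKB, the Aurora kinase of the chromosomal passenger complex, had 9.72, 9.65 and 9.63 on the LSD2 shRNA arrays, against 10.21, 10.11 and 10.37 on the scramble arrays. All 3 LSD2 shRNA values lay below all scramble values, AURKB fell by 0.56 ± 0.09 (adjusted p = 0.00116), and the call held without each array. AURKA, the Aurora kinase of the spindle poles, had 11.71, 11.69 and 11.52, against 11.88, 11.89 and 11.91 on the scramble arrays. It fell by 0.25 with an adjusted p of 0.0476, and the call was lost without any of the 6 arrays, after a shift to equal medians (0.156), with the mean of its probe sets (0.121) and with only the groups compared (0.0569). BIRC5, or survivin, which sits with AURKB in the passenger complex, was at -0.0027 ± 0.09 log2 units. PLK1, the Polo kinase of mitotic entry, was at -0.26 ± 0.09, and TPX2, which activates AURKA on the spindle, at -0.21 ± 0.07, neither called.

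The spindle checkpoint genes moved in both directions. MAD2L1, which holds Cdc20 inactive, had 11.06, 10.53 and 10.49 on the LSD2 shRNA arrays, against 10.07, 10.04 and 10.26 on the scramble arrays (0.57 ± 0.13, adjusted p = 0.0132). BUB3, the platform that brings checkpoint kinases to kinetochores, had 12.06, 11.91 and 11.86, against 11.48, 11.54 and 11.69 (0.37 ± 0.07, adjusted p = 0.00628). Both sets of arrays are apart, with LSD2 shRNA replicate 1 highest for each gene, and the MAD2L1 call was lost without scramble replicate 1 or 2 (adjusted p up to 0.0564) and with only the groups compared (0.0575). BUB1B, or BubR1, the partner of Mad2 in blocking Cdc20, had 10.07, 10.23 and 10.15 on the LSD2 shRNA arrays, against 10.38, 10.41 and 10.53. It fell by 0.29 (adjusted p = 0.0441), and this call was lost without any of the 6 arrays and with a shift to equal medians (0.103). BUB1 (0.10 ± 0.07) and TTK, or Mps1 (0.24 ± 0.10), the kinases that start the checkpoint, were not called, nor was any of the 4 anaphase genes, CDC20 (-0.11 ± 0.13), UBE2C, PTTG1 and ESPL1 (0 of these 4 had an unadjusted limma p under 0.05).

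At the kinetochore NDC80, the microtubule-binding subunit, had 9.08, 8.89 and 8.98 on the LSD2 shRNA arrays, against 8.46, 8.35 and 8.67 on the scramble arrays (0.49 ± 0.10, adjusted p = 0.00766). The other 5 centromere and kinetochore members were not called, among them its complex partner SPC25 at -0.18 ± 0.09. KIF11, the motor that pushes spindle poles apart, had 9.998, 9.85 and 9.84, against 9.47, 9.38 and 9.43 (0.47 ± 0.09, adjusted p = 0.00649). KIF15, which can share that task, had 8.62, 8.69 and 8.65, against 8.27, 8.30 and 8.32 (0.36 ± 0.07, adjusted p = 0.00834). All these groups were apart and the calls held without each array. ECT2, the exchange factor that switches on RhoA at the cleavage furrow, had 10.61, 10.34 and 10.19, against 9.76, 9.55 and 9.94 on the scramble arrays, the largest rise among the members (0.63 ± 0.12, adjusted p = 0.0048). Its partner RACGAP1 was at 0.27 ± 0.09 and not called (adjusted p = 0.0625). None of the 6 chromosome structure members was called or had an unadjusted limma p under 0.05 (0 of 6), MKI67, the Ki-67 antigen, being at -0.04 ± 0.13 and TOP2A, which untangles sister DNA, at 0.15 ± 0.09.

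**Figure D2:**
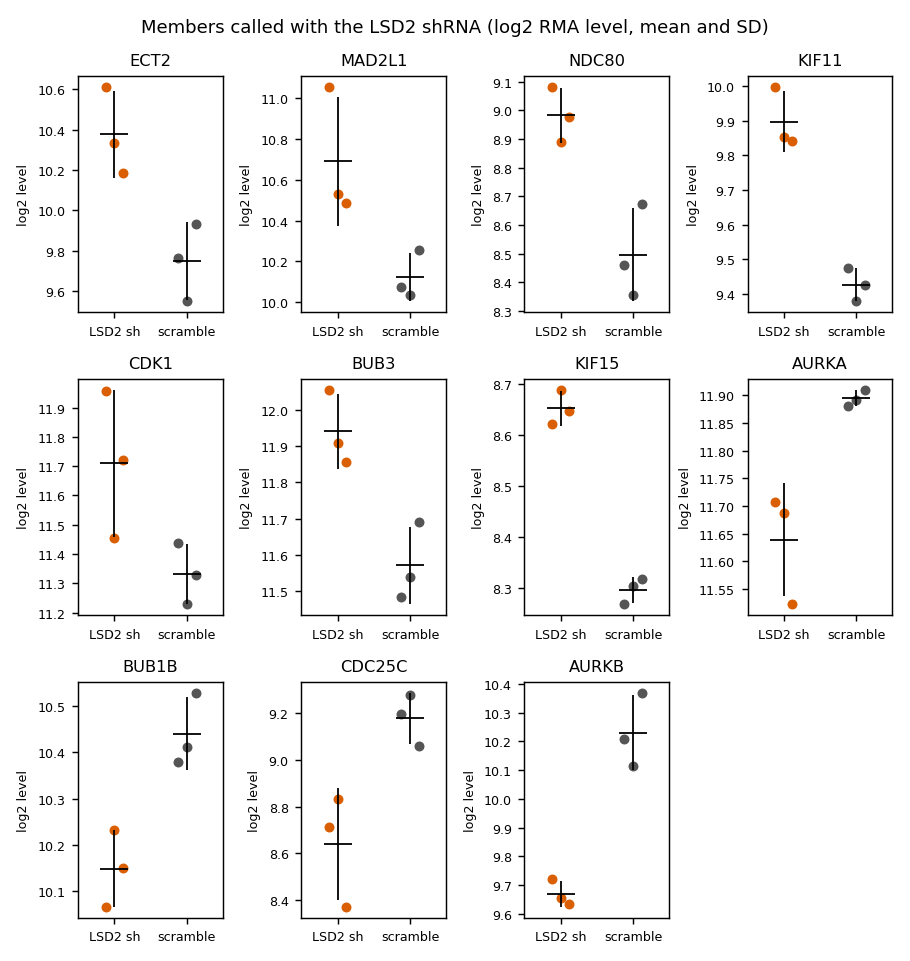
Log2 RMA level (vertical axes, own range per gene, not starting at 0) on the 3 LSD2 shRNA arrays (orange, left in each panel) and the 3 scramble arrays (grey, right) for the 11 members called, with the mean (bar) and SD (line). No panel has overlapping groups; CDK1 comes closest, with its lowest LSD2 shRNA array at 11.45 and its highest scramble array at 11.44.

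The number called depended on single arrays. It was 11 with all arrays and 7 without scramble replicate 1 or without scramble replicate 2, and the 4 falls became 2 without any of the 6 arrays, AURKB and CDC25C keeping their calls in all 6 cases. Groups did not overlap for 14 members that were higher (27.5%, against 13.5% of all genes) and 13 that were lower (25.5%, against 14.9%).

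All 11 called members moved in the direction that most called genes of their chromosome moved. Per the GRCh38.p14 gene table, ECT2 and KIF15 lie on chromosome 3, where 96 of 655 genes measured rose (14.7%) and 7 fell (1.07%). CDK1, BUB3 and KIF11 lie on chromosome 10, where 65 of 451 rose (14.4%) and 10 fell (2.22%). MAD2L1 is on chromosome 4 (34 of 452 rose and 12 fell) and NDC80 on chromosome 18 (12 of 174 rose and 4 fell). The 4 that fell lie elsewhere. AURKB is on chromosome 17, where 12 of 700 genes rose and 115 fell (16.4%), AURKA on chromosome 20 (8 of 331 rose and 44 fell), BUB1B on chromosome 15 (4 of 360 rose and 41 fell) and CDC25C on chromosome 5 (19 of 507 rose and 36 fell). The part of the chromosome in these calls was not tested, and the lean of chromosomes 3 and 17 was known before from these data. Members of the same chromosomes that were not called include SMC4 on chromosome 3 (0.15 ± 0.08), ZWINT (0.10 ± 0.07) and MKI67 on chromosome 10, and TOP2A and BIRC5 on chromosome 17.

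**Figure D3:**
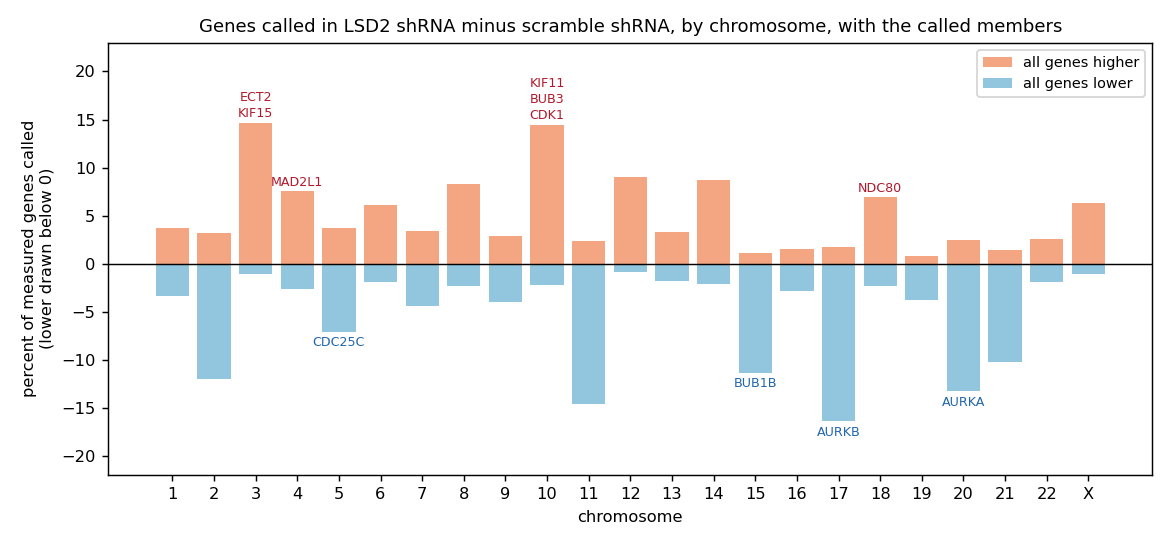
Percent of the measured genes of each chromosome (horizontal axis) called higher (orange, above 0) or lower (blue, below 0) in LSD2 shRNA minus scramble shRNA, with the called members written at their chromosome (red higher, blue lower). Chromosomes 3 and 10 lead the rises with 14.7% and 14.4%, and chromosome 17 the falls with 16.4%.

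With the LSD2/eGFP/Flag vector most members fell. MKI67, CDC20, KIF23, KIF15, TPX2, CENPF and SMC4 fell the most, with log2 differences from -2.01 to -1.20, while HMMR, BIRC5, AURKB, MAD2L1, CCNA2 and PLK1 rose. In all 37 of 51 members fell (72.5%, against 26.1% of all genes), 6 rose (11.8%, against 30.9%) and 8 were not called, so 84.3% were called in either direction, against 57.0% of all genes. The members' median difference was -0.50, against 0.01 for all genes, and 13 fell by at least 1 log2 unit. Brightness moved with direction here: among the 2991 brightest genes 39.3% fell and 33.4% rose with a median of -0.03, and of the 42 members among them 30 fell and 5 rose with a median of -0.50. Groups did not overlap for 38 members that were lower (74.5%, against 28.4% of all genes) and 6 that were higher (11.8%, against 32.7%).

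The mean over the 51 members was 10.74, 10.74 and 10.75 log2 units on the LSD2/eGFP/Flag arrays, against 11.34, 11.29 and 11.14 on the eGFP/Flag arrays, while the mean over all genes was 7.93 to 7.95 and 7.91 to 7.94. On the LSD2 shRNA arrays it was 10.39, 10.30 and 10.33, against 10.34, 10.24 and 10.34 on the scramble arrays. The vector groups are apart, with eGFP/Flag replicate 3 nearest to the LSD2/eGFP/Flag arrays, and the shRNA groups overlap. These means give each gene equal weight and were not tested.

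Of the 8 genes of the Cdk1 engine, 6 fell (75%, against 26.1% of all genes) and CCNA2 rose (12.5%, against 30.9%). CDK1 had 12.35, 12.25 and 12.20 on the LSD2/eGFP/Flag arrays, against 13.06, 13.14 and 13.03 on the eGFP/Flag arrays. It fell by 0.81 ± 0.11 (adjusted p = 1.9e-05), and its other probe sets fell by 0.94 and 1.02. CCNB2 had 11.19, 11.12 and 11.16, against 12.41, 12.30 and 12.12, and fell by 1.12 (adjusted p = 4.7e-08), 2.18-fold. Its sister cyclin CCNB1 was at -0.06 ± 0.08 and not called (adjusted p = 0.574). CCNA2 had 11.38, 11.48 and 11.28, against 11.13, 11.09 and 10.90 (0.34 ± 0.09, adjusted p = 0.00398), but its other probe set gave 0.0013, and the mean of both was not called (adjusted p = 0.151). CKS1B and CKS2, small subunits of Cdk complexes, each fell by 0.42, CDC25C fell by 0.32 and CDC25B fell by 0.26. CDC25C had 8.77, 8.59 and 8.85, against 9.21, 8.94 and 9.01, and its call and that of CDC25B were each lost without any of 4 arrays. The dimmer CDC25C probe sets fell by 1.04 and 0.25. FOXM1, a transcription factor of this gene program, had 10.03, 10.23 and 10.10, against 11.23, 11.27 and 11.13, and fell by 1.09 ± 0.07 (adjusted p = 2.0e-08).

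The mitotic kinases and their partners went both ways, 3 up (42.9%, against 30.9% of all genes) and 3 down (42.9%, against 26.1%) of 7. TPX2 had 11.13, 11.27 and 11.31 on the LSD2/eGFP/Flag arrays, against 12.48, 12.55 and 12.35 on the eGFP/Flag arrays, and fell by 1.22 (adjusted p = 5.2e-09). AURKA, which TPX2 activates, had 12.12, 12 and 12.04, against 12.71, 12.73 and 12.54, and fell by 0.61 (adjusted p = 9.7e-06). The groups of both genes are far apart, and all 3 AURKA probe sets fell, by 0.61 to 0.69. AURKB had 10.32, 10.12 and 10.26, against 9.66, 9.81 and 9.60 (0.55 ± 0.09, adjusted p = 8.2e-05). BIRC5 had 12.16, 12.09 and 12.15, against 11.35, 11.31 and 11.21 (0.84 ± 0.09, adjusted p = 1.4e-06). The passenger complex genes on the list thus rose while AURKA and its activator fell; of the other BIRC5 probe sets, the brighter gave 0.11 and the dimmer 0.62. PLK1 had 10.02, 10.18 and 10.10, against 9.94, 9.89 and 9.61 (0.28 ± 0.09, adjusted p = 0.0197), a call lost when LSD2/eGFP/Flag replicate 2 or eGFP/Flag replicate 3 was left out, when medians were made equal (0.0729) or arrays were weighted (0.0514). NEK2, a centrosome kinase, fell by 0.26, a call lost without any of 4 arrays and with only the groups compared (0.0794), while its dimmer probe set fell by 1.21. PLK4, the kinase of centriole duplication, was at 0.18 ± 0.12 and not called.

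In the spindle checkpoint BUB1 fell by 0.47 and BUB1B fell by 0.28, and MAD2L1 rose. MAD2L1 had 11.996, 11.91 and 11.82 on the LSD2/eGFP/Flag arrays, against 11.56, 11.54 and 11.38 on the eGFP/Flag arrays (0.42 ± 0.13, adjusted p = 0.0139). BUB1B had 11.23, 11.23 and 11.33, against 11.67, 11.57 and 11.38 (adjusted p = 0.0114). Neither pair of groups overlaps, but the MAD2L1 call was lost when LSD2/eGFP/Flag replicate 1 or eGFP/Flag replicate 3 was left out (adjusted p up to 0.0541) and that of BUB1B without eGFP/Flag replicate 1 (0.0564). BUB3 had 12.76, 12.73 and 12.77, against 12.84, 12.84 and 12.82, and was not called at -0.08 ± 0.07. Its dimmer probe sets gave -0.26, -0.60 and -0.75, and the mean of all 4 was called lower (-0.42, adjusted p = 0.000128). TTK was at -0.21 ± 0.10 and not called (adjusted p = 0.12).

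Of the anaphase genes CDC20, UBE2C and PTTG1 fell and ESPL1, or separase, did not pass the test (0.28 ± 0.11, adjusted p = 0.0550). CDC20, the activator of the anaphase-promoting complex, had 5.33, 4.996 and 5.18 on the LSD2/eGFP/Flag arrays, against 6.73, 6.75 and 7.17 on the eGFP/Flag arrays. It fell by 1.72 ± 0.13 (adjusted p = 7.0e-08), 3.28-fold, from the lowest level of any member on these arrays. On the shRNA arrays the same probe set read 11.51, 11.33 and 11.47 with the LSD2 shRNA and 11.61, 11.34 and 11.69 with scramble. The vector arrays thus lay 5.46 log2 units below the shRNA arrays for CDC20, while the other 50 members lay between 0.81 below and 2.39 above them, with a median of 0.90 above. Among all 11963 genes none had a lower eGFP/Flag minus scramble value than CDC20 (-4.66), a pattern noticed after the values were seen and set across arrays normalized separately. CDC20 has no other probe set here, so its vector comparison rests on low signal; without it 36 of 50 members fell and 6 rose. UBE2C, the ubiquitin-conjugating enzyme of the same complex, fell by 0.67, and PTTG1, or securin, with 12.51, 12.33 and 12.54 against 13.49, 13.49 and 13.46, fell by 1.02.

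Of the 6 centromere and kinetochore genes, 5 fell (83.3%, against 26.1% of all genes). CENPF, a kinetochore protein that builds up in G2, had 9.81, 9.90 and 9.75 on the LSD2/eGFP/Flag arrays, against 11.28, 10.95 and 10.85 on the eGFP/Flag arrays, and fell by 1.21 (adjusted p = 2.4e-06). NDC80 had 9.19, 9.14 and 9.05, against 10.31, 10.27 and 10.02, and fell by 1.07 (adjusted p = 5.6e-07). The groups of both were well apart. CENPE, a kinetochore motor, fell by 0.96 ± 0.21, SPC25 fell by 0.53, and CENPA, the centromeric histone, fell by 0.30, with its call lost when LSD2/eGFP/Flag replicate 2 or eGFP/Flag replicate 1 was left out and with only the groups compared (0.0537). ZWINT, which helps bring the Rod complex to kinetochores, was at 0.02 ± 0.07.

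Among 8 spindle motors and spindle-binding proteins 7 fell (87.5%, against 26.1% of all genes) and HMMR rose (12.5%, against 30.9%). KIF15 had 8.68, 8.86 and 8.74 on the LSD2/eGFP/Flag arrays, against 10.32, 10.22 and 10.08 on the eGFP/Flag arrays, and fell by 1.44 ± 0.07 (adjusted p = 1.3e-09). KIF11 had 10.24, 10.27 and 10.21, against 11.10, 11.01 and 10.70, and fell by 0.70 (adjusted p = 2.1e-05). DLGAP5, or HURP, which stabilises kinetochore fibres, had 10.99, 10.95 and 11.05, against 12.19, 12.08 and 11.87, and fell by 1.05 (adjusted p = 1.1e-07). All LSD2/eGFP/Flag values lay below all eGFP/Flag values for these genes. NUSAP1 fell by 0.64, KIF2C fell by 0.50, KIF4A fell by 0.42 and KIFC1 fell by 0.33. HMMR, a hyaluronan-binding protein that also sits on spindle microtubules, had 12.14, 11.99 and 12.14, against 10.95, 10.64 and 10.57, and rose by 1.37 ± 0.11 (adjusted p = 1.8e-07), 2.59-fold. Its other probe set gave 1.40, so both put HMMR opposite to the spindle genes around it.

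All 6 cytokinesis genes fell, against 26.1% of all genes. KIF23, the centralspindlin motor, had 9.0, 9.27 and 9.04 on the LSD2/eGFP/Flag arrays, against 10.86, 10.76 and 10.48 on the eGFP/Flag arrays, and fell by 1.60 ± 0.10 (adjusted p = 1.3e-08), 3.03-fold. KIF14, a midbody motor, had 10.42, 10.60 and 10.59, against 11.64, 11.65 and 11.41, and fell by 1.03 (adjusted p = 1.7e-05). ECT2 had 11.02, 11.04 and 10.89, against 11.91, 11.79 and 11.65, and fell by 0.80 (adjusted p = 5.2e-05). In each of these the groups were well apart. KIF20A, which carries the passenger complex to the midzone, fell by 0.99, RACGAP1, the partner of KIF23, fell by 0.92, and PRC1, which bundles midzone microtubules, fell by 0.60.

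Of the chromosome structure genes 4 of 6 fell (66.7%, against 26.1% of all genes). MKI67, a coat of mitotic chromosomes and the antigen scored in breast pathology, had 8.53, 8.96 and 8.88 on the LSD2/eGFP/Flag arrays, against 10.82, 10.72 and 10.86 on the eGFP/Flag arrays. It fell by 2.01 ± 0.13 (adjusted p = 1.1e-08), 4.03-fold, and its other probe sets fell by 1.48, 1.55 and 1.68. SMC4, a condensin ATPase, had 11.32, 11.47 and 11.33, against 12.72, 12.58 and 12.44, and fell by 1.20 (adjusted p = 3.2e-08). Its partner SMC2 was at 0.10 ± 0.09 and not called, but the dimmer SMC2 probe set gave -0.35. Within condensin I, NCAPG fell by 0.49 and NCAPH was at -0.06 ± 0.07. TOP2A fell by 0.54.

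**Figure D4:**
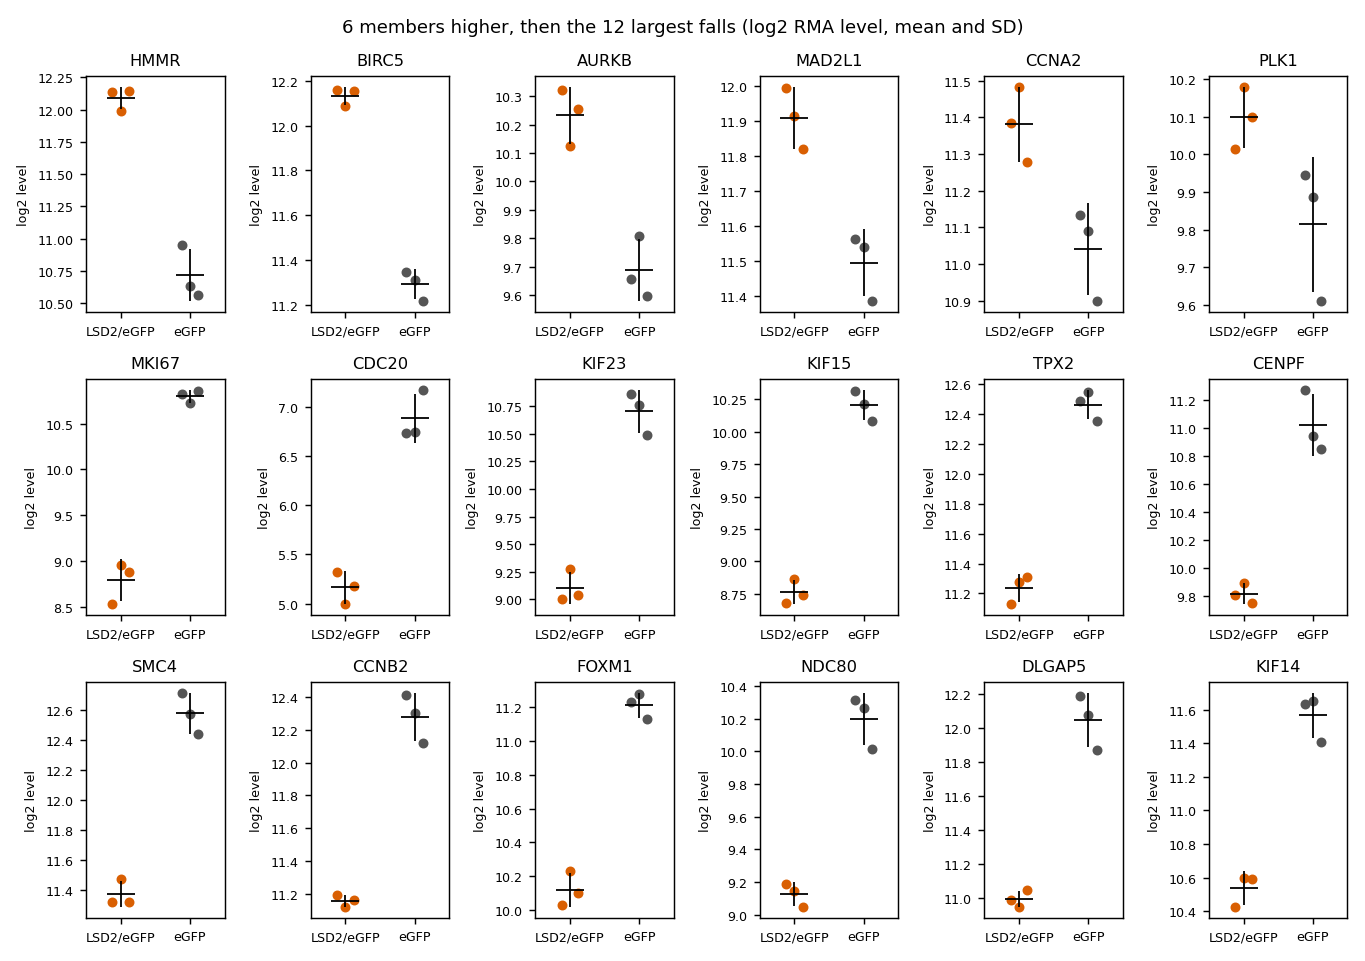
Log2 RMA level (vertical axes, own range per gene, not starting at 0) on the 3 LSD2/eGFP/Flag arrays (orange, left in each panel) and the 3 eGFP/Flag arrays (grey, right), with the mean (bar) and SD (line), for the 6 members that rose (top row) and the 12 that fell most. No panel has overlapping groups, and CDC20 stands at 4.996 to 7.17 where all other panels read above 8.5.

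The effects themselves were compared by an interaction term, vector effect minus shRNA effect, in the same limma fit. It was called for 37 members (72.5%, against 50.4% of all genes), 33 lower and 4 higher (64.7% and 7.84%, against 22.4% and 28.0%). MKI67 (-1.97 ± 0.18, adjusted p = 7.6e-07), KIF15 (-1.80 ± 0.11, 9.3e-09) and KIF23 (-1.70 ± 0.15, 4.2e-07) differed the most downwards. HMMR (1.25 ± 0.16), AURKB (1.11 ± 0.12), BIRC5 (0.85 ± 0.12) and PLK1 (0.54 ± 0.13) differed upwards. Of the 51 members 10 (19.6%, against 8.02% of all genes) were called in both comparisons, which share no arrays. CDK1, NDC80, KIF11, KIF15 and ECT2 rose with the LSD2 shRNA and fell with the LSD2/eGFP/Flag vector (9.80%, against 2.71%). AURKB alone fell with the shRNA and rose with the vector (1.96%, against 2.26%). CDC25C, AURKA and BUB1B fell in both (5.88%, against 1.96%), and MAD2L1 rose in both (1.96%, against 1.10%). For CDC25C (0.22 ± 0.17), BUB1B (0.01 ± 0.12) and MAD2L1 (-0.15 ± 0.18) the difference between the effects was not called. For AURKA it was called (-0.35 ± 0.11, adjusted p = 0.0134, limma), its fall with the vector being the larger.

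Where a member has several probe sets, they did not always give the same sign. Of the 19 such members, 6 had probe sets on both sides of 0 in the shRNA comparison (BIRC5, BUB1, CENPF, HMMR, MKI67 and PLK4), none of them called on its brightest probe set. In the vector comparison 2 did (PLK4 and SMC2), neither called on its brightest. The widest such split was that of CENPF with the LSD2 shRNA, at -0.04 on its brightest probe set and 0.65 on its second. With adjustment over probe sets, this second one passed the threshold (adjusted p = 0.0458, limma). So did the second of SMC2 with the vector (-0.35, adjusted p = 0.0250, limma). NUSAP1 had the same sign on both probe sets with the LSD2 shRNA, at -0.19 and not called on its brightest. Its second fell by 0.54 (adjusted p over probe sets 0.0188, limma). NUSAP1 was called lower with the mean of its probe sets (limma, adjusted p = 0.0116), a variance trend (0.0385) and array weights (0.0292). The members not called in either comparison were CCNB1, PLK4, TTK, ESPL1, ZWINT, SMC2 and NCAPH, 7 in all.

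Lists of further genes around G2 and mitosis, chosen like the members with earlier results known, were counted in the same fit and read against the same shares of all genes. The list nearest to the members is other spindle and cytokinesis genes. Of its 21 measured genes 16 fell with the LSD2/eGFP/Flag vector (76.2%, against 26.1% of all genes) and 3 rose (14.3%, against 30.9%), with a median of -0.50. KIF18A, a motor that helps align chromosomes, fell by 1.37, KIF20B fell by 1.26 and CEP55, which recruits the abscission machinery, fell by 1.24. The LSD2 shRNA gave 3 rises (14.3%, against 5.0% of all genes) and 2 falls (9.52%, against 5.53%) in this list. TACC3, a spindle clathrin partner, rose by 0.34 and CKAP5, its microtubule polymerase partner, fell by 0.48. KIF18A fell by 0.49 in a call lost without any of 5 arrays (all but scramble replicate 2). The KIF18A call was also lost with equal medians, cyclic loess and only the groups compared.

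Of 24 other kinetochore and checkpoint genes 10 fell (41.7%, against 26.1% of all genes) and 5 rose (20.8%, against 30.9%) with the vector, around a median of -0.07. HJURP, the chaperone that loads CENPA, fell by 2.15, while CENPT and NSL1, parts of the inner kinetochore and of its Mis12 complex, rose by 1.15 and 0.98. With the LSD2 shRNA 1 of the 24 rose (4.17%, against 5.0% of all genes) and 4 fell (16.7%, against 5.53%). The rise was that of CENPQ (0.69 ± 0.13), and MIS12 (-0.44 ± 0.07) and OIP5 (-0.47 ± 0.11, lost without any of 3 arrays) were among the falls. Of 13 cohesin and other condensin genes 5 rose and 5 fell with the vector (38.5% each, against 30.9% and 26.1% of all genes), with a median of -0.04. SMC1A and STAG2, cohesin subunits, rose by 1.58 and 1.28 and NCAPH2 of condensin II rose by 1.04. With the LSD2 shRNA 4 of the 13 rose (30.8%, against 5.0% of all genes) and none fell (against 5.53%). The 4 were SMC3 (0.55 ± 0.12, lost without LSD2 shRNA replicate 1), RAD21 (0.52 ± 0.10), WAPL, which releases cohesin (0.41 ± 0.09), and STAG2 (0.32 ± 0.07). Each has several probe sets, and all 4 calls were lost with their mean, at adjusted p = 0.131 for SMC3, 0.177 for RAD21, 0.0874 for WAPL and 0.119 for STAG2 (limma).

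Of 12 other genes of the anaphase-promoting complex and mitotic exit, 5 rose (41.7%, against 30.9% of all genes) and 3 fell (25%, against 26.1%) with the vector. UBE2S, the enzyme that extends ubiquitin chains for this complex, fell by 0.58, and ANAPC13, a subunit, and FBXO5, or Emi1, an inhibitor, rose by 0.53 and 0.50. In the shRNA comparison CDC27, a core subunit, was the only gene of the list called (8.33%, against 10.5% of all genes). CDC27 rose by 0.33 ± 0.07, a call lost without LSD2 shRNA replicate 1 or scramble replicate 1. With the mean of its 4 probe sets the call was lost and the sign turned (adjusted p = 0.934). Of 10 regulators of mitotic entry, 9 hold Cdk1 back and BORA helps Aurora A activate Plk1. With the vector 5 of the 10 rose (50%, against 30.9% of all genes) and 3 fell (30%, against 26.1%). With the LSD2 shRNA none was called, against 10.5% of all genes, and 3 had an unadjusted p under 0.05 (limma). SFN, or 14-3-3 sigma, fell by 2.96 and GADD45B fell by 1.08, whereas CHEK2, a DNA damage checkpoint kinase, rose by 1.83 and BORA rose by 0.99.

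Of 18 regulators of mitotic transcription measured, 9 rose (50%, against 30.9% of all genes) and 4 fell (22.2%, against 26.1%) with the vector, with a median of 0.28. RBBP4, a subunit of the MuvB core, rose by 1.45, and E2F8, a repressor, and NFYB, a subunit of NF-Y, fell by 1.07 and 0.86. In the shRNA comparison only RB1, the retinoblastoma protein, was called (5.56% of the list, against 10.5% of all genes). RB1 rose by 0.39 ± 0.08 (limma, adjusted p = 0.00582), and this call was lost with the mean of its probe sets (0.0885). It fell by 0.64 with the vector.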

How the data were processed

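Cultures labelled MDA-MB-231 were measured on 12 Affymetrix arrays, 3 in each of 4 groups. The deposited values are log2 levels of 22277 probe sets, made with RMA per the submitters' processing notes; the sources used here give no software, version or annotation for that step. Of 19064 probe sets naming 1 gene in the platform annotation, the brightest per gene over all arrays was kept, giving 11963 genes, and none was filtered out for low level. Differences within the shRNA arrays and within the vector arrays were fitted in limma (version 3.58.1, R version 4.3.3), with group means of all 12 arrays and moderated variance. Benjamini-Hochberg adjustment was over all genes, with a threshold of 0.05. The method was also run on simulated data with independent noise and few changed genes. That setting is unlike the vector comparison, where 57.0% of all genes were called, so it cannot vouch for those calls. ± values are the standard errors of the fit. The array number limits precision. Every-array values are given for members called with the shRNA, members that rose with the vector and the 12 that fell most; of each further list, the 3 largest differences among its called genes are named. The members, lists and rules were chosen with earlier results of these data known. Alternatives were a replicate block, only the groups compared, cyclic loess, equal medians, array weights, a variance trend, dropping the dimmest 25% of genes, averaging a gene's probe sets and leaving out each array.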

Additional observations from a re-analysis of the deposited data

How the results depend on the processing

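The shRNA calls depended on the settings more than the vector calls. Of the 51 members 11 were called with the LSD2 shRNA, against 19 with array weights, 8 with only the groups compared and 7 to 9 when any array was left out. The 4 falls became 2 with a shift to equal medians, 9 with array weights and 2 in each fit without an array; the 7 rises ranged from 5 to 10. With the vector the number called stayed between 38 and 44 of 51, the falls between 32 and 38 and the median between -0.56 and -0.48. No call of a member changed sign under any setting run. Over all genes the shRNA count of 1260 was 2350 with array weights and 752 without scramble replicate 1. Arrays with the same replicate number did not deviate together in every pair (correlations of 0.02, 0.51 and 0.45 for the shRNA arrays and -0.14, 0.17 and 0.18 for the vector arrays). Replicates 2 and 3 of the shRNA arrays did so in part, and the labels do not say what arrays of the same number share. The main fit held no replicate block. With the replicate block 10 members were called with the shRNA, 8 higher and 2 lower, and 44 with the vector; AURKA (adjusted p = 0.0560) and BUB1B (0.0577) were then not called with the shRNA, CCNA2 was (0.0297), and with the vector TTK was (0.0300). Over all genes the calls were 1640 and 6963, against 1260 and 6824 without it. Signal limits CDC20 on the vector arrays.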

Other observations

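Genes of DNA replication, which act in S phase, were counted in the same fit. Of 40 measured, 24 rose (60%, against 30.9% of all genes) and 5 fell (12.5%, against 26.1%) with the LSD2/eGFP/Flag vector, with a median of 0.31, against 0.01 for all genes. POLA2, a subunit of DNA polymerase alpha-primase, rose by 1.72 ± 0.10, CDT1, which licenses origins, rose by 1.57 ± 0.07, and GINS3, a subunit of the replicative helicase, rose by 1.29 ± 0.07 (limma, log2 differences ± SE, n = 3 arrays each). In the shRNA comparison 5 of the 40 rose (12.5%, against 5.0% of all genes) and 1 fell (2.5%, against 5.53%). PRIM1, the catalytic primase subunit, rose by 0.53, GINS3 rose by 0.39 and RPA1, which coats single-stranded DNA, fell by 0.52.

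Of 15 G1 cyclins, kinases and inhibitors, 10 rose (66.7%, against 30.9% of all genes) and 3 fell (20%, against 26.1%) with the vector, with a median of 0.36. CCND2, a D-type cyclin, had 10.92, 11.04 and 10.84 log2 units on the LSD2/eGFP/Flag arrays, against 4.18, 3.96 and 3.86 on the eGFP/Flag arrays. The eGFP/Flag values lie near the lowest of any probe set there (3.03 to 3.15), so its size of rise is no exact fold. CDKN2A, the locus of the p16 inhibitor, rose by 4.82 ± 0.09 and CDKN1C, or p57, rose by 1.99 ± 0.17. CDKN2A read 10.71, 10.68 and 10.70 on the LSD2/eGFP/Flag arrays, against 5.90, 5.84 and 5.88 on the eGFP/Flag arrays. The LSD2/eGFP/Flag arrays are those low in markers of the labelled line, and the part of this in these rises was not tested. With the LSD2 shRNA 3 of the 15 rose (20%, against 5.0% of all genes) and 2 fell (13.3%, against 5.53%). CDKN1C fell by 0.78, a call lost without scramble replicate 1 or 2, CDC25A, a phosphatase of S-phase entry, rose by 0.43, lost without any of 3 arrays and with the mean of its probe sets (adjusted p = 0.0694, limma), and CDK4 rose by 0.35.

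Markers of other cell types were counted too. Of 11 luminal breast markers 3 rose (27.3%, against 30.9% of all genes) and 3 fell (27.3%, against 26.1%) with the vector. The mean level of the 11 was 7.42 to 7.51 on the LSD2/eGFP/Flag arrays and 7.49 to 7.59 on the eGFP/Flag arrays. These near-equal means hide large moves: ERBB3, GATA3 and XBP1 rose by 2.11, 2.00 and 0.77, and KRT8, KRT18 and TFF1 fell by 2.90, 1.83 and 0.72. With the LSD2 shRNA 2 rose (18.2%, against 5.0% of all genes) and none fell (against 5.53%). The mean of the 11 was 7.13 to 7.18 on the LSD2 shRNA arrays and 7.01 to 7.06 on the scramble arrays. Of 5 blood markers none was called with the vector (0 with an unadjusted limma p under 0.05), against 57.0% of all genes. With the LSD2 shRNA 1 rose and 1 fell (20% each, against 5.0% and 5.53% of all genes). Of 6 endothelial markers 1 rose (16.7%, against 30.9% of all genes) and 3 fell (50%, against 26.1%) with the vector. With the LSD2 shRNA 1 of the 6 rose and 1 fell (16.7% each, against 5.0% and 5.53%). In the vector comparison the mean level did not overlap between groups, at 5.36 to 5.44 on the LSD2/eGFP/Flag arrays and 5.79 to 5.84 on the eGFP/Flag arrays. Most of this gap came from ENG, which fell by 2.04, while TEK and VWF fell by 0.28 and 0.21 and CDH5 rose by 0.26.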
